A study of Rattus norvegicus with 24 samples.

Results

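The genes described here are those with a higher transcript level in the ventral tegmental area (VTA) than in the nucleus accumbens (NAc) of nicotine self-administering rats. They were chosen by their measured levels: a mean of at least 10 CPM (counts per 1000000 counts of the library) over 7 VTA libraries, and a mean at least 8 times that of the 16 NAc libraries. Of 17323 genes in the deposited table, 48 passed both limits, 7 IDs that the selection names were left out, and 41 genes remained. Because the contrast of VTA with NAc selected these genes, their levels in the 2 regions are given as a description, with no test.

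RNA was sequenced from hand-dissected NAc core, NAc shell and VTA of 8 male F1 rats of the inbred strains F344 and BN, giving 24 libraries. Rats 1, 2, 11 and 15, cross A, were sired by F344 males on BN dams. Rats 3, 4, 13 and 16, cross B, were sired by BN males on F344 dams. By the sample labels, rats 1, 2, 3 and 4 had been injected with 0.4 mg/kg nicotine and rats 11, 13, 15 and 16 with saline on each of 4 days, an injection that the study's methods do not mention for these rats. All 8 rats then had intravenous nicotine, 10 infusions of 30 µg/kg a day over 6 days, in part earned by lever presses and in part given passively to make up the number, and tissue was collected on day 15. No rat without intravenous nicotine is among the libraries, and the age of the rats is not given in the sources used here. Total counts per library ranged from 17563458 to 24405856, so a gene with 0 counts in a library could still lie at up to 0.123 to 0.171 CPM there (3 counts, counting error only).

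The VTA is the midbrain region whose dopamine neurons project to the NAc, and this projection is central to nicotine reward and reinforcement. The NAc lies in the ventral striatum, where inhibitory medium spiny neurons are the main cell type, and its core and shell receive partly different inputs. A dissected block of either region also holds glia, vessels and border tissue, so a gene can stand out in a region through any of these cells. In such bulk tissue, fewer cells of a type and less RNA per cell cannot be told apart. The deposited table lists Ensembl gene IDs alone and the gene table used here matched 0 of them, so neither the functions of the genes nor marker genes of the labelled regions were examined. Members are called by their rank in the ratio of mean VTA to mean NAc level, rank 1 being the largest, and IDs are given for 4 of them.

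The 41 members fell into different patterns over the VTA libraries, as the map of their levels shows. For 29 members, each of the 7 VTA libraries lay above every NAc library. The selection favours such a separation, and its share over all genes was not counted. Most of the other members owed their place to a single VTA library. The ratio of the means ran from 8.28 (rank 41) to 3611 (rank 1).

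**Figure D1:**
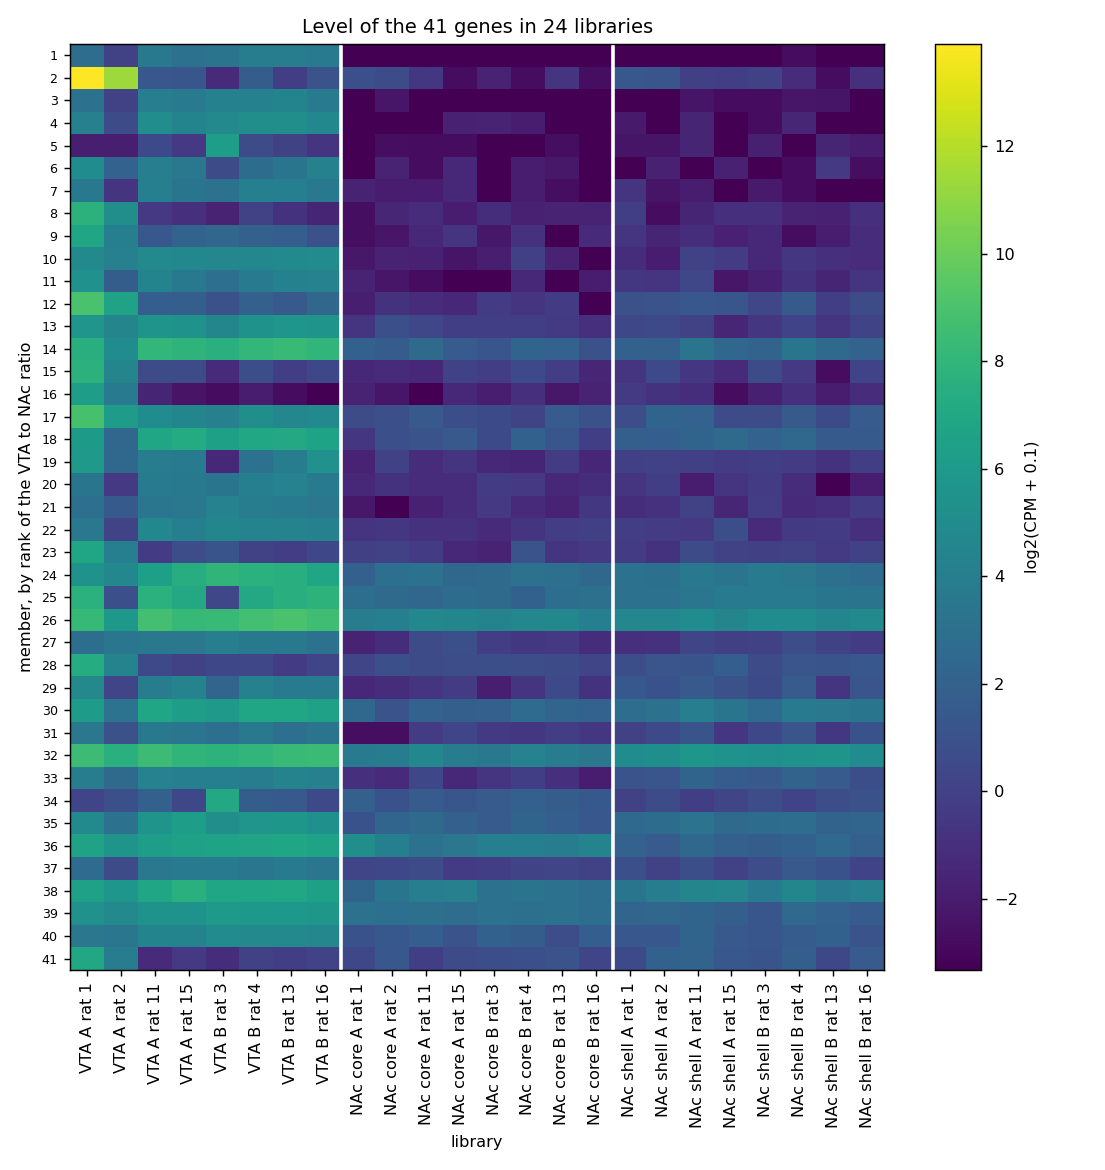
Level of each of the 41 members (rows, by rank) in the 24 libraries (columns, white lines between VTA, NAc core and NAc shell), in colour as log2(CPM + 0.1). Most rows are bright over the VTA columns and dark over the NAc columns, while some are bright in the VTA libraries of rats 1 and 2 or of rat 3 alone, and the column of VTA rat 2 is darker than its neighbours in many rows.

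The member of rank 1 was all but confined to the VTA. It had 1765 counts over the 7 VTA libraries and 1 count over the 16 NAc libraries, so that its NAc level rests on a single read. Its level was 6.93 CPM in rat 1, 12.4 in rat 11, 9.07 in rat 15, 9.81 in rat 3, 15.3 in rat 4, 15.3 in rat 13 and 13.0 in rat 16. Their coefficient of variation (SD in percent of the mean) was 27.4%. Over the other genes with a VTA mean of at least 10 CPM, its median was 10.4%. The library left out of the selection, VTA of rat 2, had 0.896 CPM. Ranks 3, 4 and 7 showed the same picture at ratios of 511, 368 and 110. Rank 4, for example, ranged from 17.9 to 36.8 CPM over the 7 VTA libraries and from 0 to 0.259 CPM over the NAc libraries, and stood at 1.40 CPM in the VTA of rat 2.

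The NAc level of most members was low but measurable. A count of 0 occurred in at least 1 NAc library for 13 members and in 8 or more of the 16 for 3 members, and 28 members had counts in every NAc library. For 10 members the 16 NAc libraries together held under 100 counts, so their ratios carry a large counting error. The member with most NAc reads was rank 32 (ENSRNOG00000016977), with 9371 counts there. It is also one of the strongest members in VTA, at 299 ± 56.0 CPM (mean ± SD, n = 7) against 29.2 ± 14.8 CPM in NAc (n = 16). The highest VTA mean among members shared by several libraries was 380 ± 79.2 CPM (rank 26, n = 7).

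Some members lay close to a limit. Just inside the ratio of 8 were ranks 41, 40 and 39, with ratios of 8.28, 8.32 and 8.45. The 3 genes just outside had ratios of 7.24, 6.82 and 6.74. Just inside the limit of 10 CPM were ranks 31, 27 and 37, with VTA means of 10.3, 11.4 and 11.4 CPM, and the 3 genes just outside had 9.93, 8.96 and 8.95 CPM. The gap at the ratio limit was therefore wider than that at the level limit.

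A set of 9 members was carried by the VTA library of rat 1 (ranks 2, 8, 9, 12, 15, 16, 23, 28 and 41). In that library their levels ran from 80.0 to 15260 CPM, 23.9 to 4710 times the next of the 7 libraries, and this library held 85.0% to 99.9% of their summed VTA level. In the other 6 libraries they lay between 0 and 5.08 CPM. Rank 2 was the extreme case. It stood at 15260 CPM in the VTA of rat 1, and at 2.46, 2.34, 0.330, 3.24, 0.823 and 1.99 CPM in those of rats 11, 15, 3, 4, 13 and 16. Its NAc libraries ranged from 0.0483 to 2.45 CPM, so those 6 VTA libraries overlapped the NAc range. Rank 12 had 496 CPM in the VTA of rat 1 and 1.79 to 5.08 CPM in the other 6, and rank 15 had 218 CPM against 0.330 to 1.64 CPM. For 3 of the 9, the mean of those 6 libraries was below the NAc mean.

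The same 9 members were raised in the VTA library of rat 2, which the selection had not used. Rank 2 had 2643 CPM there, rank 12 had 96.4 CPM, rank 8 had 36.1 CPM and rank 15 had 22.6 CPM. In each of the 9, this library was second to that of rat 1. Its level was 10.4% to 19.4% of that in rat 1 (median 15.1%), while the levels in rat 1 spanned 80.0 to 15260 CPM. Summed over the 9, the level was 16780 CPM in rat 1, 2883 CPM in rat 2 and 10.6 to 16.6 CPM in the other 6 VTA libraries. In the NAc of the same rats the levels were low. The sum was 5.75 and 10.4 CPM in NAc core and NAc shell of rat 1, and 7.84 and 13.0 CPM in those of rat 2, against 3.95 to 13.0 CPM over all NAc libraries. Rank 2 alone was highest in rats 1 and 2 in both NAc parts, at 1.71 and 1.46 CPM in core, where the other 6 rats had 0.0488 to 0.598 CPM, and at 2.45 and 2.24 CPM in shell, where they had 0.0483 to 0.922 CPM. Rats 1 and 2 are both of cross A and both nicotine-injected, and their VTA libraries carry the batch labels E and L.

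Ranks 5 and 34 were carried by another library, VTA of rat 3. Rank 5 had 80.4 CPM there and 0.179 to 1.5 CPM in the other 6. Rank 34 had 132 CPM there and 1.12 to 3.85 CPM in the other 6. Neither was raised in the VTA of rat 2, at 0.168 and 1.74 CPM. Over all 10279 genes with a VTA mean of at least 10 CPM, 12 had a library 20 or more times above the next of the 7. This was rat 1 for 10 genes and rat 3 for 2, and 11 of the 12 are members. A gene so high in 1 VTA library tends to pass both limits through it, so this overlap largely follows from the selection. Whether tissue from outside the VTA entered the VTA libraries of rats 1, 2 and 3 was not tested, and marker genes were not examined here.

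**Figure D2:**
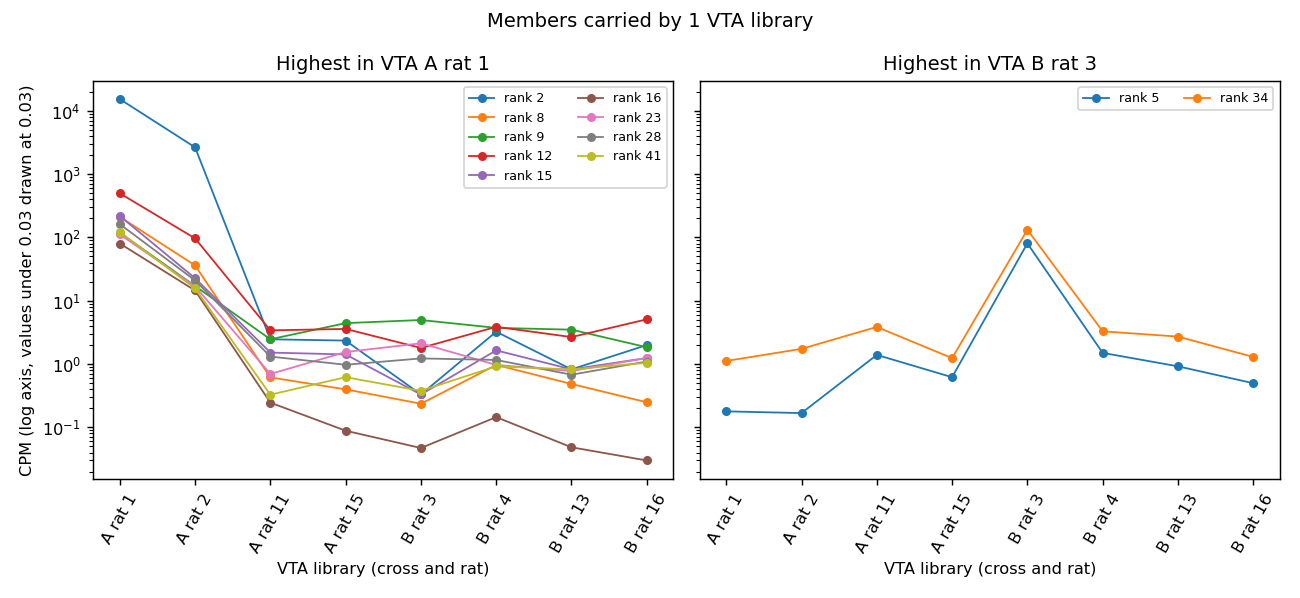
Level in CPM (log axis) of the 11 members carried by 1 library, in the 8 VTA libraries. The 9 lines on the left peak in VTA of rat 1, are next highest in VTA of rat 2 and lie between 0 and 5.08 CPM in the other 6 libraries, and the 2 on the right peak in VTA of rat 3.

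The remaining 30 members are called shared by several VTA libraries. Still, 3 of them (ranks 31, 38 and 40), near a limit, fell below it without their highest VTA library. Rank 17 passed both limits without it, but VTA of rat 1 held 73.9% of its summed VTA level. Of the 30, 28 had all 7 VTA libraries above all 16 NAc libraries, the exceptions being ranks 19 and 25. The selection favours this too, and the share of all genes with it was not counted. The coefficient of variation over the 7 VTA libraries was 25.5% at the median, against 10.4% over the other genes with a VTA mean of at least 10 CPM. For 23 of the 30 it was between 8.64% and 31.7%. The steadiest was rank 10, with 29.6 CPM in rat 1, 27.2 in rat 11, 25.8 in rat 15, 24.8 in rat 3, 26.5 in rat 4, 29.1 in rat 13 and 31.6 in rat 16. Its NAc libraries ranged from 0 to 0.959 CPM. Rank 36 (ENSRNOG00000000010) and rank 33 (ENSRNOG00000046790) were nearly as steady in VTA, at 99.8 ± 10.5 CPM and 17.7 ± 2.03 CPM (mean ± SD, n = 7).

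The 30 members were not equally strong in every VTA library. Among the 7 libraries, that of rat 1 held the lowest value for 14 of the 30 and that of rat 3 for 12, and the median member stood at 76.5% and 78.5% of the mean of the other libraries there. In rats 4 and 13 the median was 111% and 117%. The libraries of rats 1 and 3 also held the highest of the 7 values for 6 members each, which only rat 13 exceeded, with 9.

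Of the 12 members lowest in the VTA of rat 3, 7 stood at under 50% of the mean of the other 6 libraries (ranks 6, 11, 13, 17, 19, 25 and 29). Rank 25 had 1.18 CPM there against 132 to 220 CPM in the other 6. Rank 19 had 0.283 CPM against 8.46 to 60.8 CPM, and rank 6 had 1.46 CPM against 6.82 to 32.9 CPM. The VTA levels of ranks 19 and 25 in rat 3 lay within or below their NAc ranges of 0.228 to 0.927 and 4.00 to 14.5 CPM. In the VTA of rat 2, rank 25 was as low, at 1.74 CPM, which is 1.12% of the mean of the 7 libraries and the smallest share of all members. Rank 17 combined several patterns, with 470 CPM in rat 1, 74.8 CPM in rat 2, 17.8 CPM in rat 3 and 24.3 to 35.5 CPM in the other 5 libraries, all above its NAc maximum of 4.63 CPM.

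The selection named the VTA library of rat 2 and left it out, without giving a reason. Its values were therefore not used, but it was also singled out beforehand and is no arbitrary choice of library. In it the members stood at a median of 24.1% of the mean of the 7 others, whereas 10231 other genes with a VTA mean of at least 10 CPM, the 7 left-out IDs not among them, stood at a median of 100% (10th to 90th percentile, 67.6% to 141%). The library lay below all 7 others for 26 of the 41 members. A share under 25% was seen for 21 members and for 0.762% of the other genes. Among the 30 members shared by several libraries the median was 17.6%, 25 lay below all 7 others, and 20 still lay above every NAc library.

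The members differed widely in how much of their VTA level this library kept. Besides rank 25, the lowest shares were those of rank 5 (1.38%), rank 7 (3.70%) and rank 20 (4.44%). Rank 7 had 0.504 CPM against 9.10 to 17.4 CPM in the 7 others, and a highest NAc value of 0.508 CPM. Rank 18 had 5.10 CPM against 66.7 to 154 CPM, and its NAc libraries reached 6.03 CPM. Both genes thus lay within their NAc range in this library. Among the 30, a share over 50% was kept by ranks 10, 13, 17, 27, 32 and 39. Rank 27 had 10.9 CPM, within the 7.29 to 16.2 CPM of the 7 others. Rank 32 had 193 CPM, below their 221 to 358 CPM and above all NAc libraries. The highest shares of all were those of ranks 12 (131%), 16 (126%), 2 (121%) and 8 (118%), which belong to the 9 carried by rat 1.

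**Figure D3:**
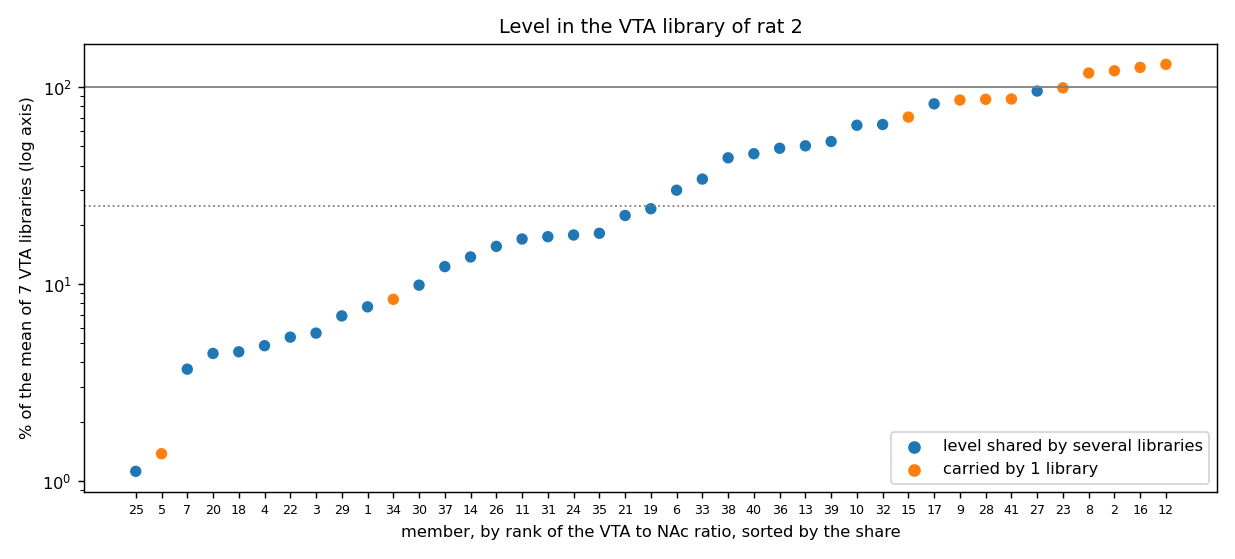
Level of each member in the VTA library of rat 2, in percent of the mean of the 7 other VTA libraries (log axis, lines at 100% and 25%), sorted. Of the 41 points, 21 lie under the dotted line at 25%, and the points at the upper right are mostly the members carried by the VTA library of rat 1.

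Choosing genes on high values in some libraries favours lower values in a library not used. Each of the other 7 libraries was therefore held out in the same way, with genes selected on the remaining 6. Unlike that of rat 2, none of these 7 had been singled out beforehand. The median share in the held-out library was then 70.2% (rat 3) to 107% (rat 13), and 0 to 17 of the 32 to 41 genes selected lay below all libraries used. A share under 25% was seen for 6.25% (rat 1) to 35.0% (rat 3) of these genes. For rat 2 these values were 24.1%, 26 of 41 and 51.2%. In the other libraries, the shares under 25% came largely from the 11 members carried by rat 1 or rat 3. Their selection makes them low elsewhere, and the 9 of rat 1 are not selected without it. In rat 2, 9 of these 11 were over 50%, while 19 of the 30 other members were under 25%. The mirror set of 102 genes, at least 10 CPM in NAc and at least 8 times the VTA mean, stood in the VTA of rat 2 at a median of 278% of the other VTA libraries and 22.0% of the NAc mean, and 85 of the 102 lay below every NAc library there. With each of the other 7 VTA libraries held out in the same way, the medians were 76.5% (rat 13) to 143% (rat 15) of the libraries used and 5.08% to 9.93% of the NAc mean. Below every NAc library lay 98 of 99 genes with rat 13 held out, 99 of 102 with rat 1 and 99 of 101 with rat 11. These counts were 108 of 109 with rat 15, 106 of 107 with rat 3, 101 of 101 with rat 4 and 104 of 107 with rat 16. The labelled region of this library was not examined with marker genes, and the part of dissection in its levels was not tested.

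NAc core and NAc shell were compared next, a contrast that the selection did not use because it took both together. Of the 41 members, 14 differed (edgeR quasi-likelihood test, adjusted p under 0.05 over 16289 genes), 3 higher in core and 11 higher in shell. The share of all genes tested that was higher in core was 7.88% and that higher in shell was 7.21%, against 7.32% and 26.8% of the members. The median log2 fold change of core over shell was -0.67 over the members and -0.01 over all genes, and 6 of the 41 were positive, against 48.6% of all genes. Some members have few NAc reads and passed the filter through VTA. With genes limited to those with a mean normalized count over 10 in the 16 NAc libraries, 28 members remained, of which 3 were called higher in core and 10 higher in shell, 10.7% and 35.7% against 8.32% and 7.56% of all such genes. Their median log2 fold change was -0.61, and 4 of the 28 were positive. Summed over the 41, the level was 103 to 141 CPM in the 8 core libraries and 145 to 226 CPM in the 8 shell libraries. The 2 ranges did not overlap, but this rests on rank 32, without which the sums were 91.8 to 116 CPM in core and 111 to 170 CPM in shell. These remain low levels beside the VTA.

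Rank 36 (ENSRNOG00000000010) was the clearest of the members higher in core. Its core libraries had 36.1, 17.0, 9.06, 11.0, 17.1, 17.2, 14.9 and 20.4 CPM for rats 1, 2, 11, 15, 3, 4, 13 and 16, and its shell libraries had 4.11, 3.02, 5.33, 3.78, 3.23, 4.04, 5.70 and 3.81 CPM in the same order. All core libraries lay above all shell libraries. The log2 fold change was 2.16 ± 0.23 (SE), adjusted p = 2.01e-06 by edgeR. Rank 39 (ENSRNOG00000052880) had 7.16 to 9.09 CPM in core (median of 8, 8.09) and 2.31 to 5.70 CPM in shell (median 4.38), again without overlap, with a log2 fold change of 1.00 ± 0.15 and adjusted p = 7.60e-05 by edgeR. The last of the 3 was rank 34, which rat 3 carried in VTA. It had 1.93 to 3.81 CPM in core and 0.816 to 1.83 CPM in shell, with a log2 fold change of 1.24 ± 0.20.

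Among the members higher in shell, ranks 33, 12, 11 and 29 had the largest fold changes. Rank 32 (ENSRNOG00000016977) had the smallest p of them. Its core libraries had 14.0, 14.7, 26.8, 15.7, 12, 19.5, 15.8 and 11.1 CPM for rats 1, 2, 11, 15, 3, 4, 13 and 16, and its shell libraries had 33.7, 37.5, 55.9, 43.9, 39.1, 45.0, 49.1 and 32.7 CPM. Every shell library exceeded every core library, and in all 8 rats the shell was higher. The log2 fold change of core over shell was -1.33 ± 0.15, adjusted p = 5.33e-06 by edgeR. Rank 33 (ENSRNOG00000046790) lay at lower levels, with 0.160 to 1.25 CPM in core and 1.67 to 4.56 CPM in shell, and a log2 fold change of -2.44 ± 0.33 (adjusted p = 3.30e-05 by edgeR). Its levels in VTA, 14.9 to 20.3 CPM, exceeded both.

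The other 9 members higher in shell were ranks 11, 12, 18, 25, 28, 29, 30, 35 and 38, with log2 fold changes from -0.55 to -2.13. Of these, rank 11 had a mean normalized count of at most 10 in NAc, with 0 to 6 counts per core library and 2 to 24 per shell library. Rank 30 had 2.04 to 6.45 CPM in core and 6.27 to 16.5 CPM in shell, with a log2 fold change of -1.25 ± 0.21. Rank 25 had 4.00 to 7.95 CPM in core and 8.49 to 14.5 CPM in shell, so that its NAc parts stood apart although its VTA libraries ranged from 1.18 to 220 CPM. Rank 12 had 0 to 0.721 CPM in core and 0.821 to 2.80 CPM in shell. With rat as a replicate block, rank 28 no longer passed (adjusted p = 0.0788 by edgeR). In that fit ranks 14, 26 and 24, all higher in shell, newly passed (adjusted p = 0.00716, 0.0290 and 0.0302 by edgeR). Groups of libraries without overlap were found for 7 members, 3 higher in core and 4 in shell, and for 3.44% of all genes.

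**Figure D4:**
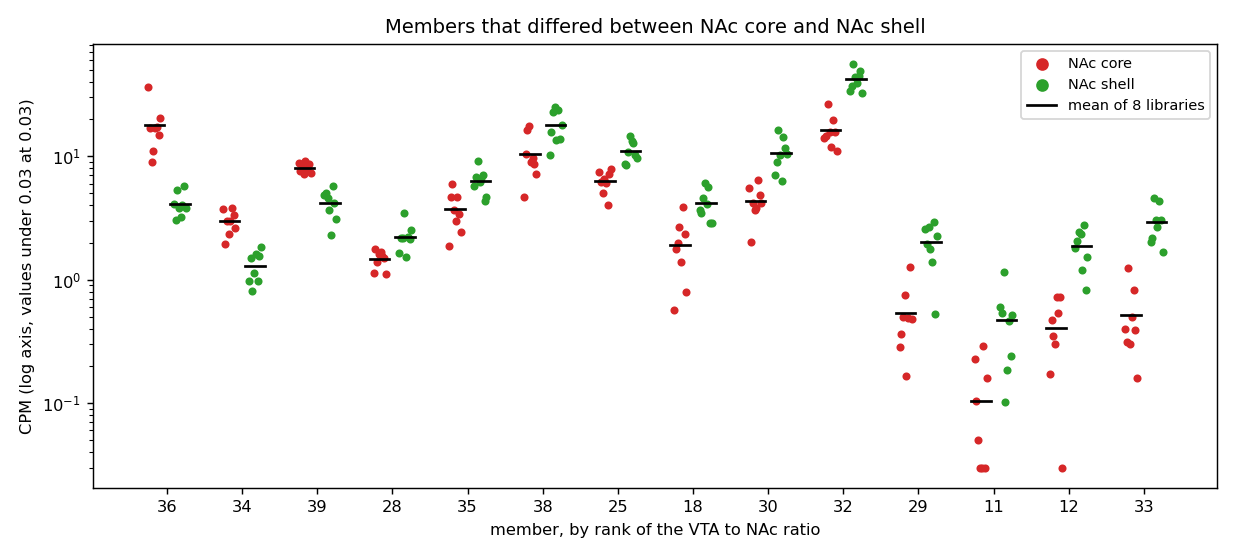
Level in CPM (log axis) of the 14 members that differed between NAc core (red) and NAc shell (green), 1 point per library and a bar at the mean of 8 libraries. The 3 members on the left were higher in core and the 11 on the right higher in shell, and the 2 groups of points do not overlap for 7 of the 14.

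The crosses were compared because the study had asked whether the parental origin of the strains matters for nicotine intake. The study also treats the crosses as its groups of rats more and less inclined to take nicotine actively, so cross and active intake cannot be told apart. In VTA, 0 of the 41 members differed between cross A and cross B by edgeR (0% of all genes called), with 4 libraries per cross. At an unadjusted p under 0.05 there were 17 members, against 5.70% of all genes. Of the 17, 11 are the members carried by 1 VTA library, which entered the set through the same VTA values, and another is rank 17, so this count is given as a description and nothing is read from it. By DESeq2 3 members were called, ranks 2, 16 and 8, all of the set carried by rat 1 (0.0368% of all genes). Their cross A libraries did not agree among themselves. Rank 16 had 80.0, 14.5, 0.246 and 0.0885 CPM in rats 1, 2, 11 and 15, against 0 to 0.145 CPM in cross B. Without the libraries of rats 1 and 2, the log2 fold changes of ranks 2, 8 and 16 were 0.56 ± 0.70, 0.04 ± 0.68 and 1.37 ± 1.05 (SE), none with an unadjusted p under 0.05 by edgeR.

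Without the VTA library of rat 2, edgeR again called 0 members, and the same 17 had an unadjusted p under 0.05, against 7.25% of all genes. Without those of rats 1 and 2 there were 3 such members, against 4.92% of all genes. Cross A is then left with rats 11 and 15, both saline-injected, against 2 nicotine-injected and 2 saline-injected rats of cross B. These 3 were ranks 36, 39 and 40, whose cross A libraries all lay below all cross B libraries, with rat 2 and without it. Such a separation, in either direction, was shown by 3.36% of all genes with rat 2 and by 7.58% without it, beside 7.32% of the members (3 of 41), so without rat 2 the members' share is near the background.

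Rank 39 (ENSRNOG00000052880) was the member with the smallest p once rat 2 was left out. Its VTA level was 41.9, 43.5 and 46.5 CPM in rats 1, 11 and 15 of cross A, 59.8, 57.9, 57.3 and 56.5 CPM in rats 3, 4, 13 and 16 of cross B, and 27.5 CPM in rat 2. The means were 44.0 ± 2.36 CPM (SD, n = 3) and 57.9 ± 1.41 CPM (SD, n = 4), a log2 fold change of A over B of -0.43 ± 0.07 (SE). The adjusted p was 0.654 by edgeR and 3.98e-04 by DESeq2, so the call depends on the test. With all 8 libraries the log2 fold change was -0.57 ± 0.15, and the adjusted p was 0.812 by edgeR and 0.2245 by DESeq2, so that of these 4 fits only DESeq2 without rat 2 called it. Rank 40 had 11.3, 21.6 and 22.1 CPM in cross A without rat 2 and 24.7 to 31.4 CPM in cross B, and rank 36 had 81.6 to 97.9 CPM against 103 to 114 CPM. Neither passed by edgeR or by DESeq2 without rat 2. In that DESeq2 fit, which called 0.0368% of all genes, 12 of the 41 members had no p-value, ranks 2, 8 and 16 among them.

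**Figure D5:**
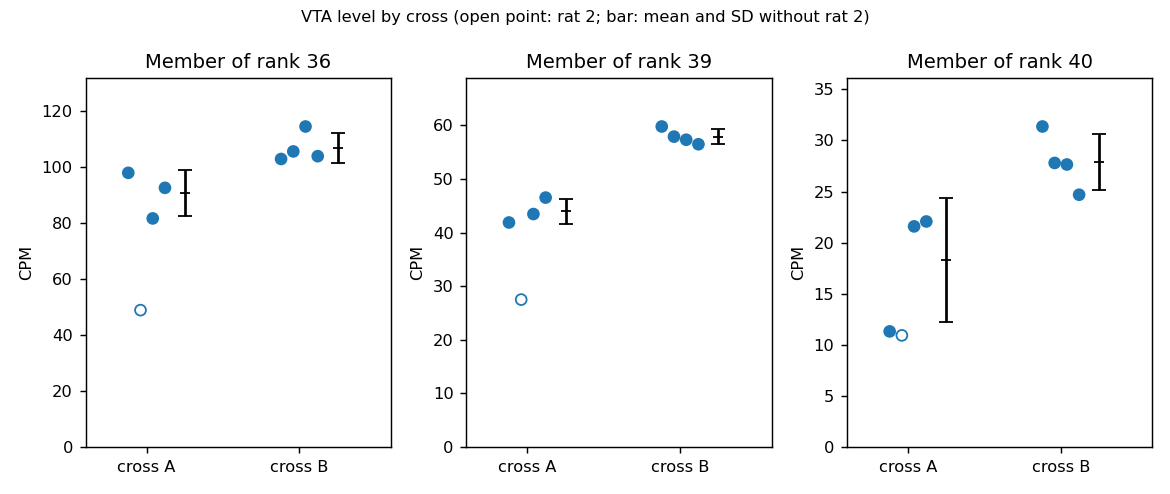
VTA level in CPM of the 3 members whose cross A libraries all lay below their cross B libraries (ranks 36, 39 and 40), 1 point per rat, the open point being rat 2. Bars give the mean ± SD of 3 cross A libraries without rat 2 and of 4 cross B libraries, and for rank 39 these were 44.0 ± 2.36 and 57.9 ± 1.41 CPM.

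In the NAc, 0 of the 41 members differed between the crosses, in core (0.0184% of all genes called by edgeR) or in shell (0.00614%). DESeq2 called 0 members in both (0.368% and 0.0307% of all genes), but in core it gave no adjusted p for 31 of the 41. At an unadjusted p under 0.05 there was 1 member in core, against 9.36% of all genes, and 1 in shell, against 4.00%. Both times it was rank 2. With a mean normalized count over 10 in the libraries compared there were 26 members in core and 29 in shell, so the other 15 and 12 had few reads there, and nothing is read from these shares. In NAc shell its level was 2.45, 2.24, 0.863 and 0.818 CPM in rats 1, 2, 11 and 15 of cross A and 0.922, 0.363, 0.0483 and 0.418 CPM in rats 3, 4, 13 and 16 of cross B, with a log2 fold change of 1.85 ± 0.62 (adjusted p = 0.995 by edgeR). The highest of these values were those of rats 1 and 2, whose VTA libraries also had most of it.

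Nicotine and saline injection on the 4 early days were compared in VTA. By edgeR 0 members differed (0% of all genes), and 12 had an unadjusted p under 0.05, against 2.03% of all genes. These 12 are the 11 members carried by rat 1 or rat 3 and rank 17. Rats 1, 2 and 3 are all nicotine-injected and the rule used the VTA values of rats 1 and 3, so nothing is read from this count. DESeq2 called ranks 2 and 8 (0.0246% of all genes). Both belong to the set carried by rats 1 and 2, which are nicotine-injected. The other nicotine-injected rats, 3 and 4, had 0.330 and 3.24 CPM of rank 2, below and above the 0.823 to 2.46 CPM of the saline-injected rats. Without the VTA library of rat 2, edgeR again called 0 members, and the same 12 had an unadjusted p under 0.05, against 2.19% of all genes. Without the libraries of rats 1 and 2 the log2 fold change of rank 2 was -0.08 in place of 11.18. In that comparison 9 members had an unadjusted p under 0.05, against 2.02% of all genes. Ranks 5 and 34 of these are high, and ranks 6, 11, 13 and 19 low, in the VTA of rat 3. The nicotine-injected rats left are rats 3 and 4, both of cross B and of batch F, against saline-injected rats of both crosses, so the crosses are unbalanced, injection and batch F cannot be told apart, and nothing is read from this count. The smallest p was that of rank 5, which rests on the VTA library of rat 3, also nicotine-injected. With the batch label as a term, 20 members were called (1.01% of all genes), 7 higher and 13 lower in nicotine. In that fit the only batch with both injections is L, which holds the VTA libraries of rats 2 and 16, so the injection cannot be told apart from the library of rat 2.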

How the data were processed

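Bulk RNA-seq libraries of NAc core, NAc shell and VTA from 8 rats were used. By the study's methods, the authors trimmed reads with fastp 0.20.0, quantified them with salmon 0.12.0 against Rnor 6 and summed them to genes with tximport. The deposited values are estimated counts, already whole numbers, for 17323 Ensembl IDs in 24 columns; 0 columns were without a sample. Salmon splits reads between similar transcripts, so near-identical genes can exchange counts. The sources used here do not say which genes the table was limited to; its lowest row total was 13.

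CPM are counts divided by the column sum, times 1000000. Tests used edgeR 4.0.16 (quasi-likelihood F test, TMM, R 4.3.3) on 16289 genes with a median-ratio normalized count over 10 in at least 3 libraries, all 41 members among them, with Benjamini-Hochberg adjustment over all of them, two-sided. Region was the only term for core against shell (16 libraries), cross or injection for the others (8 libraries). A fit of VTA minus the mean of both NAc parts (24 libraries) gave a background of 35.3% of genes called higher in VTA and was not read for the members. Each standard error was the fold change divided by the square root of F. The fits were tested on simulated counts.

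Alternatives were DESeq2 1.42.0, RLE size factors, no filter, covariates, a block for rat, omission of single replicates, and for the set of members other limits, summaries and libraries. The libraries of rats 1 and 2 or 1 and 3 left out, DESeq2 without rat 2, the count of genes by their NAc level, the sums without rank 32 and the libraries held out in turn were added after the data were seen. Core and shell of 1 rat are paired by the animal; the correlations of their deviations from the group means ran from -0.183 to 0.194. Within groups, the 36 pairs of libraries had chi-square statistics of 5.16 to 127 times their degrees of freedom, so none was a copy. That replicates are separate rats follows from the rat numbers.

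Named members were to be those of fixed gene lists, those with the largest ratios, levels, variation and shares in rat 2, those next to the limits, and those with the smallest p in each contrast. The gene lists and region markers are by symbol and the IDs matched 0 entries of the reference table, so these lists were not run, and members are called by rank; the text also describes other ranks where they show a pattern. At most 2 IDs that rose and 2 that fell are given. The members and lists were chosen with earlier results of these data known, and the groupings of members over the VTA libraries were made after their values were seen.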

Additional observations from a re-analysis of the deposited data

Results flagged for a closer look

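Each member was examined in VTA, separately for the 4 rats of each cross, for a library far from the other 3, its gap divided by the range exceeding Dixon's critical value. Of 82 such groups 10 were singled out. In groups not chosen by their values, chance gives about 1 in 20. That share does not apply here, since the members were selected on these VTA values, and 7 of the 10 concern the same library.

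In cross A, the VTA library of rat 1 stood above the others for ranks 8 (0.831), 9 (0.874), 15 (0.902), 17 (0.887), 23 (0.854), 28 (0.876) and 41 (0.874). Rank 15, for example, had 218 CPM there against 1.42 to 22.6 CPM in rats 2, 11 and 15. The next highest library was that of rat 2 in all 7.

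The VTA library of rat 2 stood below the others for rank 13 (0.871), at 22.6 CPM against 46.9 to 50.4 CPM.

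In cross B, the VTA library of rat 3 stood above the others for rank 5 (0.987), at 80.4 CPM against 0.498 to 1.5 CPM, and for rank 34 (0.985), at 132 CPM against 1.29 to 3.29 CPM.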

How the results depend on the processing

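The set held 106 genes at a ratio of at least 4, 25 at a ratio of at least 16 and 26 against the highest NAc library. It held 37 genes with the VTA library of rat 2 included (36 shared with the 41), 30 by medians (all members), 41 by TMM library sizes (the same genes), and 32 to 41 with each VTA library left out, 32 without rat 1. Without rats 1 and 3 it held 30, all members.

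For core against shell, the 14 calls became 19 by DESeq2, 16 with the replicate block (paired by rat) and 11 to 16 with each rat left out. For the crosses in VTA, 0 became 3 by DESeq2 and 1 by DESeq2 without rat 2, and it was 0 to 0 with each replicate left out. For injection, 0 became 2 by DESeq2 and 20 with the batch term. For all genes, VTA minus NAc gave 11057 calls and 10963 with the replicate block. Only the members with the smallest p in each contrast, and ranks 36, 39 and 40 in VTA, were followed singly. Members not followed also changed in core against shell. Ranks 14, 24, 26, 31 and 41 newly passed by DESeq2, and ranks 14, 24 and 26 with the replicate block, where rank 28 no longer passed. Among the members followed, 363 values kept their direction and side of the threshold and 8 newly passed it. The sign turned with the batch term for rank 15 in NAc core (0.22) and rank 26 in NAc shell (0.071), and for injection without rat 2 for ranks 36 (0.068, and -0.229 at the other end over replicates left out) and 39 (0.075, and -0.267), and without rats 1 and 2 for ranks 2 (-0.084), 36 (0.11), 39 (0.23) and 40 (0.32). None of these 8 passed a threshold. Apart from the libraries left out, the causes were not tested.

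Depth limits the NAc values most, where 10 members had under 100 counts in all. Each cross has 4 rats and each injection 2 in each cross, and 1 rat decides many VTA values.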
